A study of Mus musculus with 24 samples.

Results

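The genes described here encode the proteins of the cytosolic ribosome. Members were taken by symbol: names of the form Rpl or Rps followed by a number, with Rplp0, Rplp1, Rplp2 and Rpsa added and names ending in -ps left out. This gave 84 of the 23306 genes in the table, 51 of the large subunit and 33 of the small subunit. Of the 84, 7 are paralogs of a core gene (Rpl3l, Rpl7l1, Rpl10l, Rpl22l1, Rpl39l, Rps27l and Rps4y2), and the other 77 are called core genes below. The entry Rps4y2 carries the current symbol Rps4l and is annotated as a transcribed pseudogene.

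RNA came from the dentate gyrus of female C57BL6 mice of the Nes-CreERT2::RiboTag line, which carry a Nestin-driven, tamoxifen-inducible Cre and 1 RPL22HA allele beside a wild-type allele. All groups, sedentary ones included, received tamoxifen at 160 mg per kg on 5 days from an age of 9 to 11 weeks. In recombined cells and their descendants the Rpl22 protein gains an HA tag, and ribosomes were precipitated by it. The 12 IP libraries hold RNA from that precipitate, which the labels assign to immature neurons, and the 12 input libraries hold RNA of the dentate gyrus. Running mice had a turning wheel and sedentary mice a glued one, for 11, 18 or 27 days, which gave 12 groups of 2 libraries. Nestin marks stem cells, so the tag is inherited by every descendant, and how many animals went into a library is not stated. The p-values therefore reflect only how these libraries vary, a spread that may be technical.

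A cytosolic ribosome pairs a small subunit, which reads the mRNA, with a large subunit, which joins amino acids. Nearly every ribosomal protein is present once per ribosome, except the acidic stalk proteins Rplp1 and Rplp2, which sit in several copies on Rplp0 and recruit elongation factors. Most of their mRNAs begin with a C followed by a run of pyrimidines, the 5′ terminal oligopyrimidine (TOP) motif, through which growth signals acting by mTOR control their translation. Rpl22 is the protein that carries the tag, and Rpl22l1 is its close paralog.

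RefSeq start sites (GRCm38.p6, windows from 250 bases before to 50 after each start) were matched for 63 of the 84 genes. A C at the start followed by at least 4 pyrimidines was found in 13 of the 63 (20.6%) and in 813 of all 27025 genes (3.01%). The word CCGGAAG, on either strand, lay in the window of 41.3% of the members and 9.93% of all genes. The word CTCTTTC, on either strand, lay in 28.6% and 9.28%. A match describes the letters and not a bound site. The windows below run from 50 bases before the start to 25 bases from it, 5′ to 3′, for members whose values are described later. Capitals mark the pyrimidine run at the annotated start. The last pair, Rpl22 and Rpl22l1, has none there, although in Rpl22l1 pyrimidines follow from the next base. A run that begins beside the annotated start was not counted.
Rps27 (chr3:90213624-90213698, minus strand): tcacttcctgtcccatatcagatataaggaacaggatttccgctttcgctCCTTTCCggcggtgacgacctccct
Rps21, the first of 2 listed starts, the second having no run (chr2:180257329-180257403, plus strand): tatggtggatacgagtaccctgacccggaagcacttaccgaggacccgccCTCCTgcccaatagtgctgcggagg
Rplp2 (chr7:141447601-141447675, plus strand): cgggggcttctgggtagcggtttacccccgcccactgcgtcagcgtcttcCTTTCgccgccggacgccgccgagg
Rpl14 (chr9:120571467-120571541, plus strand): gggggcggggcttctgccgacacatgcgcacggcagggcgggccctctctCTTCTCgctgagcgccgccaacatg
Rpl35 (chr2:39005107-39005181, minus strand): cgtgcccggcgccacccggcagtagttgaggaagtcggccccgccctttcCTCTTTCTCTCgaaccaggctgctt
Rpl38 (chr11:114668530-114668604, plus strand): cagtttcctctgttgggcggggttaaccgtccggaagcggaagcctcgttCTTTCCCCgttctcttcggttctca
Rpl22, the second of 2 listed starts (chr4:152325676-152325750, plus strand): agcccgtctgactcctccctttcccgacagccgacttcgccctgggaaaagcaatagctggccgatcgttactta
Rpl22l1 (chr3:28805458-28805532, plus strand): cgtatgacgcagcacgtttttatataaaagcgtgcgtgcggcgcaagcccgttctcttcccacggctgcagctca

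Values are TPM, a length-scaled share of transcripts. They account for transcript length and sum to 1000000 in a library, so read depth is unknown. Markers of immature neurons summed to 907 to 2540 TPM in IP libraries and 314 to 529 TPM in the input, and all 7 passed the test as higher in the IP. All 6 neural stem cell markers were higher too. Of all genes tested, 41.4% were higher in the IP and 28.5% lower. Interneuron markers summed to 149 to 194 TPM in IP libraries and 484 to 735 TPM in the input, and microglia markers to 46.5 to 110 and 157 to 244 TPM; all 5 of each were lower. Of 5 mature granule neuron markers 1 was higher and 3 lower, of 5 astrocyte markers 2 and 2, and of 5 oligodendrocyte markers 1 and 4. The summed levels of these lists were 618 to 1087 TPM (IP) and 539 to 837 TPM (input) for mature granule neurons, 1086 to 2208 and 739 to 1158 TPM for astrocytes, and 851 to 1311 and 404 to 652 TPM for oligodendrocytes. The oligodendrocyte sums were higher in every IP library although 4 of the 5 genes were lower. Of 5 endothelial markers 3 were lower, of 4 tested choroid plexus markers 3 were lower, and of 3 red blood cell markers 1 was higher. No marker was at 0 in every library, and Folr1, Aqp1, Hba-a1 and Hba-a2 were at 0 in some. The 1102 olfactory receptor genes, whose products belong to the nose, averaged 0.565 to 2.05 TPM in the IP, but in the input 0.518 to 2.58 TPM on day 11, 4.67 to 9.78 TPM on day 18 and 1.74 to 3.66 TPM on day 27. Rpph1, the RNA of ribonuclease P, took 17.4% of the TPM in IP library a of running day 11 and 4.58 to 9.16% in the other IP libraries.

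Ribosomal protein transcripts made up 2.80% ± 0.439 of the TPM in IP libraries and 3.33% ± 0.417 in the input (SD, n = 12 libraries each). By day, the IP shares were 3.18 to 3.51% on day 11, 2.49 to 2.76% on day 18 and 1.95 to 2.92% on day 27. In the input they were 3.48 to 4.03% on day 11, 2.63 to 3% on day 18 and 3.27 to 3.54% on day 27. The IP ranges of days 18 and 27 overlapped each other and stayed below that of day 11. In the input, day 18 was the low day, and all 4 of its libraries lay below those of days 11 and 27. In these bulk samples, fewer cells of a type and less RNA per cell cannot be told apart.

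**Figure D1:**
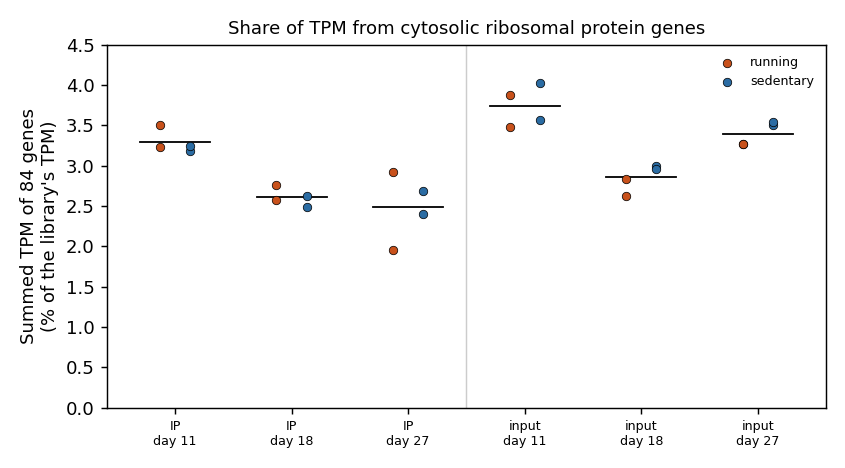
Summed TPM of the 84 ribosomal protein genes as a percentage of each library's TPM, by fraction and day; points are libraries, coloured by activity, and lines are means of 4 libraries. The IP libraries of day 11 (3.18 to 3.51%) lie above those of days 18 and 27, and the input libraries of day 18 (2.63 to 3%) lie below the other input libraries.

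Levels spanned a wide range among the members. Among the highest in the IP were Rpl23a, at 1178 ± 322 TPM, and the stalk protein gene Rplp1, at 943 ± 277 TPM (mean ± SD, n = 12). In the input Rplp1 stood at 1177 ± 178 TPM and Rpl23a at 1176 ± 228 TPM. They differ by less than their spread in either fraction. In the IP the lowest 3 were paralogs known mainly from other tissues, and in the input the core gene Rps27, described below, lay under one of them, Rpl10l. Rpl39l stood at 0.993 ± 1.11 TPM in IP libraries and 1.63 ± 1.68 TPM in the input and was listed at 0 in 5 IP and 2 input libraries. Rpl3l, known from muscle, stood at 1.25 ± 0.585 and 1.01 ± 0.687 TPM. Rpl10l, an intronless copy of Rpl10 known from testis, stood at 2.20 ± 2.04 and 6.01 ± 4.59 TPM, where its parent Rpl10 stood at 294 ± 50.2 and 422 ± 93.2 TPM. Across the 77 core genes the log2 levels of IP and input went together (Pearson 0.953, Spearman 0.916, a description across genes that share the same libraries).

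A few core genes stood far below the rest, although their proteins are stoichiometric parts of the ribosome. Rps27 (mm10 chromosome 3, 90212522 to 90213651) had 15.3 ± 5.87 TPM in IP libraries and 4.79 ± 3.17 TPM in the input. Rpl30 (chromosome 15, 34440505 to 34443640) had 43.9 ± 24.8 and 19.9 ± 13.6 TPM. Rps15a was as low in the IP but varied less, with 41.7 ± 5.63 and 45.3 ± 4.89 TPM. Rpl26 (chromosome 11, 68901583 to 68906989) was listed at 0 in 3 of 12 IP and 6 of 12 input libraries. In the IP its values were 31.9, 20.3, 0 and 84.9 TPM on day 11, 42.3, 22.3, 39.2 and 73.2 TPM on day 18, and 17.6, 0, 0 and 22 TPM on day 27. The highest input value was 32.0 TPM. An exact 0 for a gene that every cell uses can be a failed estimate, so no fold is given for Rpl26.

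Sequence copies limit how far single members can be read. Ribosomal protein genes have many processed pseudogenes, and of the 50-base windows of the coding sequence a median of 93% per core gene recurred in a transcript of another gene in GENCODE M21. In 44 core genes over 90% of windows recurred, in 10 under 50%, and 49 members overlap another annotated gene, often a small nucleolar RNA in an intron. For Rps27, Rps29, Rpl28 and Rpl41 all windows recurred. For Rpl30 the share was 83.1%, for Rpl26 87.3%, for Rpl14 77.7%, for Rps21 45.5%, for Rps15 43.3%, for Rpl22 31% and for Rps3 8.09%. By name, 0 of the genes sharing windows were in the deposited table for Rps27, Rps29, Rpl28, Rpl41, Rpl14, Rps21, Rps15, Rpl22 and Rps3. For Rpl30 and Rpl26 it was 1 each. The sources used here do not tell how reads were divided among such copies, so values of the members with high shares are uncertain.

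The first comparison asked how ribosomal protein transcripts stood in RNA from tagged ribosomes against the tissue. Of the 84 members, 39 were lower in the IP and 6 higher at an adjusted p under 0.05, where 28.5% of all 19507 genes tested were lower and 41.4% higher. The median member differed by -0.19 on the log2(TPM + 1) scale and the median gene by 0.12. In the large subunit 25 of 51 were lower and 3 higher, and in the small subunit 14 of 33 and 3. Only 2 members, Rpl7l1 and Rpl41, had no overlap between the 12 IP and 12 input libraries, where 12.2% of all genes had none. After median-of-ratios scaling, which shifted the median gene by -0.24, 62 members were lower and 3 higher, beside 41.5% and 27.7% of all genes. Among the 33 core genes with at most 90% recurring windows, 13 were lower and 3 higher. Of the 44 over 90%, 24 were lower and 2 higher, with a median of -0.24. Of the 10 under 50%, 4 were lower and 2 higher, with a median of 0.05. Across the 77 core genes the difference went with the share of recurring windows at Pearson -0.111 and Spearman -0.215. The part of sequence sharing in the members' difference was not tested.

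Among the members lower in the IP, the small subunit genes Rps21 and Rps29 differed most. Rps21 (chromosome 2, 180257377 to 180258445) ranged from 120 to 423 TPM in the IP, with a median of 248, and from 201 to 1132 TPM in the input, with a median of 556. Its difference was -1.26 ± 0.16 (log2, SE), a 2.4-fold lower level (limma adjusted p = 2.14e-06). The Rps29 values ran from 101 to 263 TPM in the IP, with a median of 171, and from 184 to 723 TPM in the input, with a median of 401. This was a difference of -1.23 ± 0.20 (adjusted p = 4.65e-05), and the 2 ranges overlapped for both genes. Rpl41, the shortest member with a coding length of 75 bases, differed by -0.76 ± 0.09, and its highest IP library (678 TPM) lay below its lowest input library (721 TPM). Rpl34 and Rplp2 each differed by -0.69, Rps12 by -0.66, Rps13 by -0.64 and Rpl38 by -0.62.

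The stalk and other special members did not move as a block. Rplp2 had 552 ± 86.0 TPM in IP libraries and 911 ± 255 TPM in the input. Its partner Rplp1 differed by -0.36 ± 0.11 (adjusted p = 0.00702), and Rplp0, the base of the stalk, by 0.13 ± 0.10 (adjusted p = 0.228). Rplp0 turned to -0.15 under median-of-ratios scaling. Rpsa, also known as the laminin receptor, had 371 ± 45.5 TPM in IP libraries and 575 ± 147 TPM in the input, a difference of -0.59 ± 0.08. Rps27a, made as a fusion with ubiquitin, had 443 ± 101 and 454 ± 91.8 TPM, a difference of -0.05 ± 0.08 (adjusted p = 0.632).

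Of the 6 members higher in the IP, Rps27 and Rpl30 were among the core genes of low level. Rps27 ranged from 6.68 to 26.0 TPM in the IP, with a median of 14.2, and from 1.67 to 10.8 TPM in the input, with a median of 3.49. The difference was 1.57 ± 0.19 (adjusted p = 9.95e-07), a 2.97-fold higher level. Rpl30 ranged from 13.1 to 111 TPM in IP libraries and from 2.96 to 43.9 TPM in the input, a difference of 1.23 ± 0.32 (adjusted p = 0.00374). Rps15, a protein near the decoding site, had 549 ± 112 TPM in IP libraries and 361 ± 66.1 TPM in the input, a difference of 0.59 ± 0.11. Rps3, at the mRNA entry channel, had 235 ± 35.5 and 174 ± 31.6 TPM, a difference of 0.44 ± 0.10. Rpl28 was higher by 0.42 ± 0.13. Under median-of-ratios scaling Rps27, Rpl30 and Rps15 remained past the threshold, and Rps3, Rpl28 and Rpl7l1 did not. Without the running input library a of day 11 the number higher was 11 rather than 6.

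**Figure D2:**
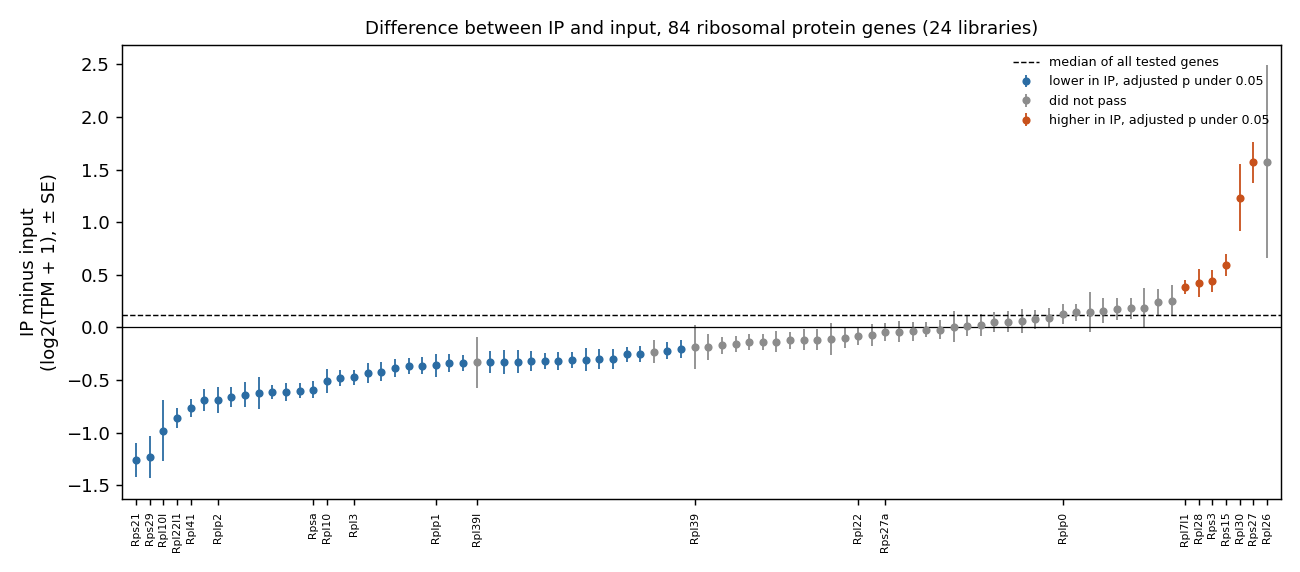
IP minus input for each of the 84 ribosomal protein genes on the log2(TPM + 1) scale with its standard error, 12 IP and 12 input libraries, ordered by size, with some of the genes described in the text named; the dashed line is the median of all tested genes. Most points lie below that line, from -1.26 for Rps21 upward, and Rps27 and Rpl30 stand apart among the 6 members called higher; Rpl26, listed at 0 in 9 libraries, has the widest bar.

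Rpl22 itself, the carrier of the tag, did not pass the test between the fractions. It ranged from 103 to 202 TPM in the IP, with a median of 152, and from 97.8 to 249 TPM in the input, with a median of 159. The difference was -0.08 ± 0.09 (adjusted p = 0.413), and it was -0.36 under median-of-ratios scaling and -0.33 without the day 18 libraries, past the threshold in both. Its paralog Rpl22l1 was lower in the IP, with 51.0 ± 16.2 TPM against 90.4 ± 13.4 TPM in the input. That difference was -0.86 ± 0.09, a 1.82-fold lower level (adjusted p = 9.08e-08). The ranges, 30.5 to 78.6 and 63.9 to 109 TPM, overlapped.

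The other paralogs and their parents differed less uniformly. Rpl7l1, a relative of Rpl7, had 50.2 to 62.9 TPM in IP libraries and 37 to 49.7 TPM in the input, every IP library above every input library. Its difference was 0.38 ± 0.07, where Rpl7 differed by 0.14 ± 0.08 (adjusted p = 0.114). Rpl10l differed by -0.98 ± 0.29 (adjusted p = 0.00536), and its call was lost without the day 18 libraries, with a difference of -0.35. Rpl10 was lower by 0.51 and Rpl3 by 0.47 on the log2 scale. Rpl3l (0.19), Rpl39l (-0.33), Rps27l (0.15) and Rps4y2 (0.08) did not pass, nor did the parents Rpl39 (-0.19) and Rps4x (-0.14). The signs of Rpl7, Rps27l and Rps4y2 turned negative under median-of-ratios scaling.

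Coding length and start sequence were set beside the differences as descriptions. The core genes have coding sequences from 75 to 1257 bases long. IP minus input went with log2 coding length at Pearson 0.0948 and Spearman 0.105 (77 genes). Over all 16837 tested genes with a coding length these were 0.314 and 0.348. The 9 core genes under 300 bases had a median difference of -0.19, the 22 of at least 600 bases -0.24, and the 46 between them -0.18. Of the 13 members with a pyrimidine run at the RefSeq start, 6 were lower and 2 higher, with a median of -0.23. Of the 50 others matched, 23 were lower and 3 higher, with a median of -0.18.

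Genes that work with the ribosomal proteins were read from lists, where 41.4% of all genes were higher in the IP and 28.5% lower. Of 19 other mRNAs known for TOP motifs, 8 were lower and 4 higher, with a median of -0.16. Tpt1, the translationally controlled tumour protein, was the one with the lowest p, at 618 ± 180 TPM in IP libraries and 1164 ± 327 TPM in the input (-0.90 ± 0.08). Eef1d and Eif3l, for an elongation and an initiation factor, were higher, by 0.52 and 0.58. Of 49 ribosome biogenesis genes, 36 were higher and 3 lower, with a median of 0.48. Mybbp1a had 77.8 ± 6.10 TPM in IP libraries and 31.2 ± 4.63 TPM in the input (1.3 ± 0.06), and Polr1a, the largest subunit of RNA polymerase I, was higher by 0.99. Of 9 host genes of small nucleolar RNAs, 5 were higher, among them Gas5 by 1.41, and 1 was lower. Mitochondrial ribosomal protein genes split evenly, 17 of 76 higher and 16 lower. Outside the symbol rule, Rpl36al was lower (-0.59) and Fau (0.23), made as a fusion with a ubiquitin-like protein, did not pass.

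Within days, 14 members were lower and 4 higher in the IP on day 11, 20 and 9 on day 18, and 39 and 3 on day 27. The background was 12.1% lower and 29.2% higher on day 11, 31% and 33% on day 18, and 14.3% and 34.6% on day 27. Rpl7l1 and Rps15 were higher on each of the 3 days. The 9 of day 18 include Rpl26, which was listed at 0 in 3 of the 4 input libraries of that day. A test of the difference between days (limma F test) passed for 19 of 84 members, against 37.4% of all genes. The 19 fell to between 7 and 12 without 11 single libraries: of the input, running day 18 c (11) and d (8), running day 27 e (11) and f (11), sedentary day 18 c (7) and sedentary day 27 f (9); of the IP, running day 18 c (7), running day 27 f (10), sedentary day 11 b (12), sedentary day 18 d (10) and sedentary day 27 f (9). Without IP sedentary day 18 d the number lower on day 18 was 13, and without IP running day 27 f the number lower on day 27 was 24. The number higher on day 11 was 8 without input running a and 2 without IP sedentary b. On day 18 it was 5 without input running d, 4 without input sedentary c, 5 without IP running c and 4 without IP sedentary d.

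Rpl22 had the lowest p of that test among the members (adjusted p = 0.00746). Its IP minus input was -0.12 ± 0.15 on day 11, 0.41 ± 0.15 on day 18 and -0.54 ± 0.15 on day 27. The input carried the middle value, with 97.8 to 132 TPM on day 18 against 152 to 249 TPM on day 11 and 159 to 200 TPM on day 27. In the IP the day 18 libraries held 135 to 165 TPM. Rpl14 followed the same course, at 0.15, 0.46 and -0.56 (each ± 0.17). The contrast of day 27 with day 11 alone gave no member call in limma, where 0.323% of all genes passed as lower and 1.46% as higher. Of the members, 13 had an unadjusted limma p under 0.05 (smallest adjusted p = 0.0763). A positive sign was found in 16 of 84 members, and the median was -0.28. These signs are not independent, as the members share libraries.

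The next comparison asked how the members differed between days within the IP. Between days 11 and 27, 29 of 83 members fell and 1 rose, where 3.88% of the 17282 genes tested fell and 11.4% rose. The median member differed by -0.40 and the median gene by 0.15. By subunit, 17 of 50 large and 12 of 33 small subunit genes fell. In 32 of 83 members the 4 libraries of day 27 did not overlap the 4 of day 11, 30 of them lower, where 18% of all genes did not overlap. After median-of-ratios scaling, which shifted the median gene by -0.16, 43 members fell and none rose, beside 10.2% and 6.58% of all genes. Among the 33 core genes with at most 90% recurring windows, 14 fell. Across the 77 core genes the difference between days went with log2 coding length at Pearson 0.263 and Spearman 0.439. Shorter genes thus tended to the larger fall. Over all 14984 tested genes with a coding length these were 0.109 and 0.0951. The part of length in the members' fall was not tested.

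Rpl14 gave the clearest fall among these members by p. On day 11 its levels were 728 and 534 TPM in running and 518 and 522 TPM in sedentary mice, and on day 27 they were 364, 229, 335 and 276 TPM. All day 27 libraries lay below all day 11 libraries, a difference of -0.94 ± 0.16 (adjusted p = 0.00169). Rpl39 went from 240, 185, 201 and 207 TPM to 151, 63.2, 143 and 104 TPM, a difference of -0.92 ± 0.23. Rpl35 went from 1062, 994, 988 and 1115 TPM to 784, 388, 724 and 641 TPM, a difference of -0.76 ± 0.18. In each of these genes the running library f of day 27 was the lowest of the 12.

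Rpl23a had 1878, 1326, 1528 and 1435 TPM on day 11 and 1044, 698, 1069 and 859 TPM on day 27 (-0.76 ± 0.17). Rps26, a small subunit protein at the mRNA exit, had 778, 701, 531 and 619 TPM on day 11 and 406, 307, 485 and 390 TPM on day 27 (-0.73 ± 0.13). Both sets did not overlap. Rps23 fell by 0.73, Rplp1 by 0.66, Rps20 by 0.64 and Rpl36a by 0.61 on the log2 scale. Rpl30 had the largest fall, -1.20 ± 0.30 (adjusted p = 0.0264), from 56.8, 38.8, 44.4 and 111 TPM to 22, 13.1, 42.4 and 29.0 TPM, with 1 day 27 library above the lowest day 11 library. Rpl22 fell by 0.51 ± 0.12 (adjusted p = 0.0144), from 168, 162, 202 and 153 TPM to 137, 103, 123 and 118 TPM, without overlap. Rpl22l1 differed by -0.44 ± 0.14 (adjusted p = 0.0443), with overlapping libraries.

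Rps27 was the member that rose. Its levels were 13.9, 7.84, 6.68 and 10.9 TPM on day 11 and 14.5, 19.6, 18.5 and 23.7 TPM on day 27, without overlap. The difference was 0.92 ± 0.21 (adjusted p = 0.0108), and it was 0.75 and no longer past the threshold under median-of-ratios scaling. Rps2 (0.37, adjusted p = 0.0792) and Rps4y2 (0.27, adjusted p = 0.233) had the next lowest p among positive differences and did not pass.

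The number of members that fell between days 11 and 27 rested on single libraries. It was 12 without running a of day 11, 12 without sedentary a of day 11, 18 without sedentary b of day 11, 12 without running f of day 27, 16 without sedentary e of day 27, 6 without sedentary f of day 27 and 54 without running e of day 27. It was 14 without limma's trend and robust options. Of the members named, Rpl14, Rps26 and Rps20 passed with any 1 of the 12 libraries left out. Rpl22l1 lost its call in 9 of the 12 settings and Rplp1 in 8, and each passed without running b of day 11 and without sedentary c or d of day 18, Rplp1 also without running e of day 27. Without sedentary f of day 27, Rpl30, Rpl39, Rpl35, Rpl23a, Rps23, Rpl36a and Rpl22 lost theirs. So did Rpl30, Rpl39, Rpl35 and Rps23 without running a of day 11, Rpl39, Rps23 and Rpl22 without sedentary a of day 11, Rpl39 without sedentary b of day 11, Rpl30, Rps23 and Rpl22 without running f of day 27, and Rps23 without sedentary e of day 27. Rps27 did not pass without sedentary a of day 11 or sedentary f of day 27, and 2 members rose without running b of day 11. Of the markers, 4 of 5 for mature granule neurons rose over the same days, summing to 618 to 706 TPM on day 11 and 718 to 1087 TPM on day 27. Of all genes, 11.4% rose and 3.88% fell over these days. Immature neuron markers summed to 1222 to 1974 and 907 to 1480 TPM, with 2 of 7 lower, and olfactory receptor genes averaged 0.565 to 1.40 and 1.17 to 2.05 TPM. Rpph1 was 5.96 to 17.4% on day 11 and 4.94 to 5.85% on day 27. The part of these in the members' difference was not tested.

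Between days 11 and 18 of the IP, 11 members fell and none rose, where 1.1% of all genes fell and 4.56% rose. They were led by Rpl22l1 (-0.85 ± 0.14, adjusted p = 0.00661), Rps21 (-0.85 ± 0.22), Rps26 (-0.83 ± 0.13) and Rps29 (-0.81 ± 0.19). Rpl22l1 had 62.1, 53.1, 78.6 and 73.5 TPM on day 11 and 33.8, 32.7, 50.4 and 30.5 TPM on day 18, without overlap. Rpl14, Rps27a, Rpl31, Rps28, Rpl32 and Rps25 fell by 0.51 to 0.68. The number was 0 without the trend and robust options and 17 after leaving Rpph1, Gm20594 and Malat1 out of the total. Leaving out a library gave 3 (running a of day 11), 19 (running b of day 11), 2 (sedentary a of day 11), 3 (sedentary b of day 11), 4 and 2 (running c and d of day 18), 3 (sedentary d of day 18), 25 each (running e and f of day 27) and 7 each (sedentary e and f of day 27). Rpl22l1 and Rps26 passed with any 1 library left out, whereas Rpl31 lost its call in 9 of 12 settings, Rps21 and Rps28 in 8, Rps29, Rpl32 and Rps25 in 6, Rpl14 in 5 and Rps27a in 3. Without running b and sedentary b of day 11 the number that rose was 2 and 1. Between days 18 and 27 no member passed in limma (7 at an unadjusted p under 0.05, smallest adjusted p = 0.215), where 0.122% of all genes did, and 1 passed without running e of day 27. Rpl22l1 differed by 0.41 and Rpl22 by -0.35 over those days.

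**Figure D3:**
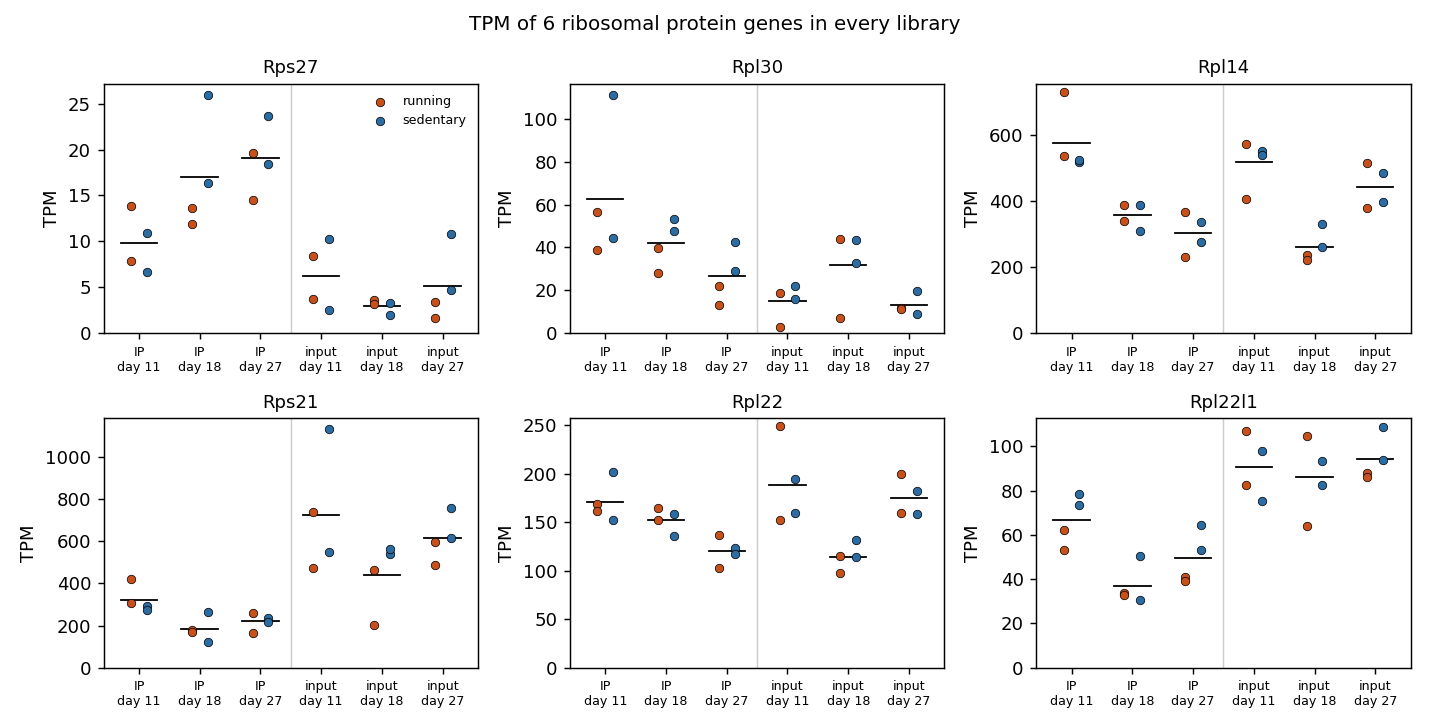
TPM of Rps27, Rpl30, Rpl14, Rps21, Rpl22 and Rpl22l1 in every library by fraction and day; points are libraries, coloured by activity, and lines are means of 4 libraries, each panel on its own axis from 0. In the IP, Rpl14 runs from 518 to 728 TPM on day 11 and 229 to 364 TPM on day 27, Rps27 lies higher on day 27 than on day 11, and in the input Rpl14 and Rpl22 are lowest on day 18.

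In the input, members fell to day 18, and fewer rose from there to day 27. Between days 11 and 18, 29 of 84 fell and 2 rose, where 11.4% of the 20462 genes tested fell and 37.8% rose. The 29 were core genes, 21 of the members lower being of the large subunit and 8 of the small, and the 2 that rose were the paralogs Rpl10l and Rpl39l. Rpl34 fell most, from 663, 547, 789 and 609 TPM to 304, 305, 298 and 331 TPM (-1.06 ± 0.14, adjusted p = 0.000232), without overlap. Rpl14 went from 405, 570, 551 and 539 TPM to 235, 222, 259 and 329 TPM (-0.98 ± 0.16), again without overlap. Rpl13a fell by 0.81, Rpl6 by 0.78, Rpsa and Rpl37 by 0.76, Rps23 by 0.74, Rpl12 by 0.73, Rpl5 by 0.71 and Rpl22 by 0.69. Rpl22l1 differed by -0.08 ± 0.17 and did not pass. Rpl7a, part of the same large subunit, differed by 0.39 ± 0.16 in the other direction (adjusted p = 0.0599).

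Between days 18 and 27 of the input, 22 members rose and 1, Rpl39l, fell, where 10.4% of all genes rose and 26.7% fell. By subunit, 17 of 51 large subunit genes rose, with a median of 0.20, and 5 of 33 small subunit genes, with a median of -0.02. Rpl34 rose by 0.77 ± 0.14, Rpl14 by 0.76 ± 0.16, Rpl13a by 0.70 ± 0.19 and Rpl12 by 0.69 ± 0.15. Between days 11 and 27 no member passed in limma (2 at an unadjusted p under 0.05), where 0% of all genes passed, and 1 passed without sedentary a of day 11. The day 18 input libraries also had the highest olfactory receptor values, 4.67 to 9.78 TPM, and the highest median gene, 7.23 to 9.10 TPM against 4.43 to 6.27 TPM on the other days. The part of these in the members' difference was not tested. Rpl37 lost its fall in 5 of 12 settings that left out a library of day 11 or 18 (running a, sedentary a, running c, sedentary c and sedentary d), and Rpl13a its rise in 5 (running c, running d and sedentary c of day 18, and both f libraries of day 27). The number that fell between days 11 and 18 was 19 without running c of day 18, and the number that rose was 5 without running a of day 11 and 4 without sedentary d of day 18. The 22 that rose between days 18 and 27 became 9 without running c, 9 without running d and 6 without sedentary c of day 18, and 10 without running e, 7 without running f, 13 without sedentary e and 6 without sedentary f of day 27. The number that fell was 3 without running a, 3 without running b, 2 without sedentary a and 2 without sedentary b of day 11, 2 without running d and 3 without sedentary d of day 18.

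Across the 77 core genes, the difference between days 27 and 11 in the IP went with that in the input at Pearson 0.404 and Spearman 0.326, a description across genes that share libraries and composition.

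**Figure D4:**
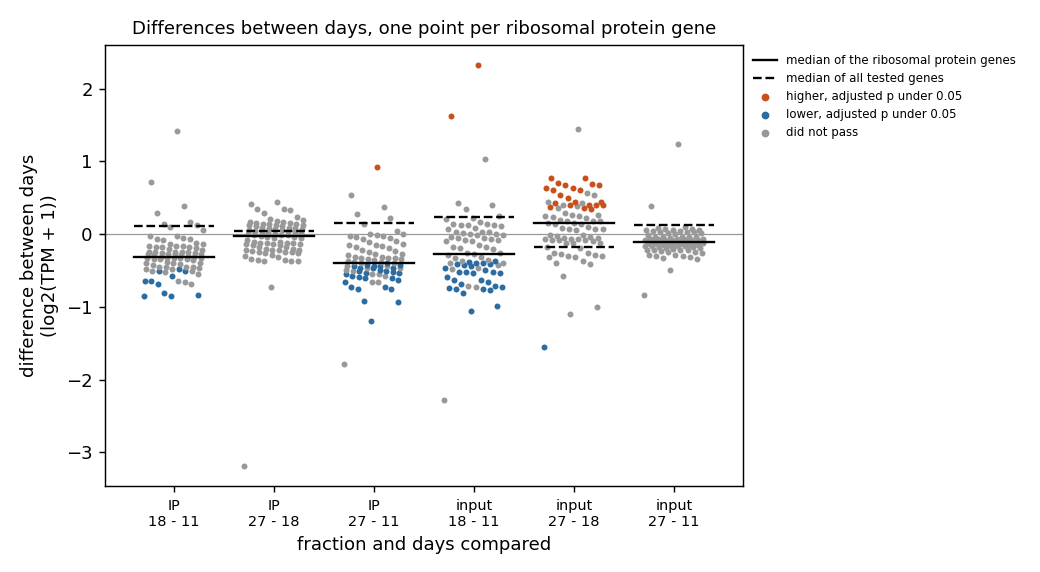
Differences between days on the log2(TPM + 1) scale, 1 point per ribosomal protein gene (83 in the IP, 84 in the input), in each fraction; solid lines are medians of these genes and dashed lines medians of all tested genes. In the IP the members' median for day 27 minus 11 is -0.40 beside 0.15 for all genes, and in the input 29 calls lie below 0 and 2 above it for day 18 minus 11, and 22 above 0 and 1 below it for day 27 minus 18.

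Related lists were read over the same days of the IP, where 3.88% of all genes fell and 11.4% rose between days 11 and 27. Of 19 other TOP mRNAs 5 fell and none rose between days 11 and 27, among them Eef1b2 by 0.88, Tpt1 by 0.58 and Naca by 0.55, with a list median of -0.24. Of 49 ribosome biogenesis genes 3 fell, among them Ncl by 0.45 and Taf1d by 0.49, and 1, Bop1, rose by 0.57. Of 76 mitochondrial ribosomal protein genes 3 fell and 1 rose, with a median of -0.05. Of 9 host genes of small nucleolar RNAs 2 fell, Snhg4 by 0.57 and Snhg5 by 0.46. In the input, 28 of the 76 mitochondrial ribosomal protein genes, 25 of the 49 biogenesis genes and 8 of the 19 other TOP mRNAs fell between days 11 and 18. Over those days of the input 29 of the 84 members and 11.4% of all genes fell, so the fall was not particular to the members. Among the members with a pyrimidine run at the start, 4 of 13 fell and 1 rose between days 11 and 27 of the IP, and of the other 49 matched and tested 14 fell. Fau and Rpl36al differed in that comparison by -0.23 and -0.15 and did not pass.

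The comparison the study was built on is running against sedentary. In the IP no member of 83 passed in limma (3 at an unadjusted p under 0.05, smallest adjusted p = 0.196), where 0.00579% of all genes did. The median member differed by -0.01 and the median gene by -0.07, and 39 of 83 members had a positive sign. The ribosomal share of TPM was 2.82% ± 0.544 in running and 2.77% ± 0.355 in sedentary IP libraries (SD, n = 6 each). Day by day no member passed either, with backgrounds of 0% on day 11, 0% on day 18 and 0.0289% on day 27. On these days 0, 3 and 3 members had an unadjusted p under 0.05. With the library letter as a replicate block, 1 member, Rpl22l1, passed as lower for running in the IP, among 440 genes that did.

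The members nearest the threshold in the IP are given as values. Rpl22l1 ranged from 32.7 to 62.1 TPM in running and from 30.5 to 78.6 TPM in sedentary IP libraries, a difference of -0.39 ± 0.11 (adjusted p = 0.196). Rpl30 differed by -0.72 ± 0.24 (adjusted p = 0.256) and Rpl37a by -0.29 ± 0.11 (adjusted p = 0.272). On the positive side were Rplp0 (0.20), Rpl12 (0.18) and Rpsa (0.16). Rpl22, the tagged gene, differed by 0.00 ± 0.10. Of the markers none passed either, with all 7 for immature neurons positive (1023 to 2540 TPM in running and 907 to 1754 TPM in sedentary IP libraries) and all 6 for neural stem cells negative.

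In the input no member of 84 passed in limma (4 at an unadjusted p under 0.05), where 0% of all genes did. Within days the backgrounds were 0%, 0.00977% and 0% on days 11, 18 and 27, again with no member called, and 0, 0 and 2 members had an unadjusted p under 0.05. The median member differed by -0.11 and the median gene by 0.00, with 13 of 84 members positive. Members share the same libraries and TPM total, so their signs are not independent. The share of TPM was 3.23% ± 0.444 in running and 3.43% ± 0.400 in sedentary input libraries (SD, n = 6 each). Rpl24 differed by -0.24 ± 0.09 and Rps26 by -0.33 ± 0.14, each with an adjusted p = 0.953. Rpl26 was listed at 0 in all running input libraries but 1, at 29.8 TPM, and in 1 sedentary input library, the others having 12.0 to 32.0 TPM; its adjusted p was 0.953 too.

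The running difference was set against itself between the fractions. The difference in the IP minus that in the input gave no member call in limma (0 of 84 at an unadjusted p under 0.05, smallest adjusted p = 0.803), where 0% of all genes passed. The median was 0.10 for the members and -0.06 for all genes. Rps23 (0.41 ± 0.22) and Rpl13 (0.27 ± 0.14) were among the positive ones of lowest p, and Rpl22l1 (-0.33 ± 0.18) the negative one. No gene of the TOP, biogenesis, small nucleolar RNA host and mitochondrial ribosomal lists passed for running in either fraction. Tpt1 differed by 0.32 ± 0.11 in the IP (adjusted p = 0.25) and the RNA helicase gene Ddx21 by 0.28 ± 0.09 (adjusted p = 0.209).

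**Figure D5:**
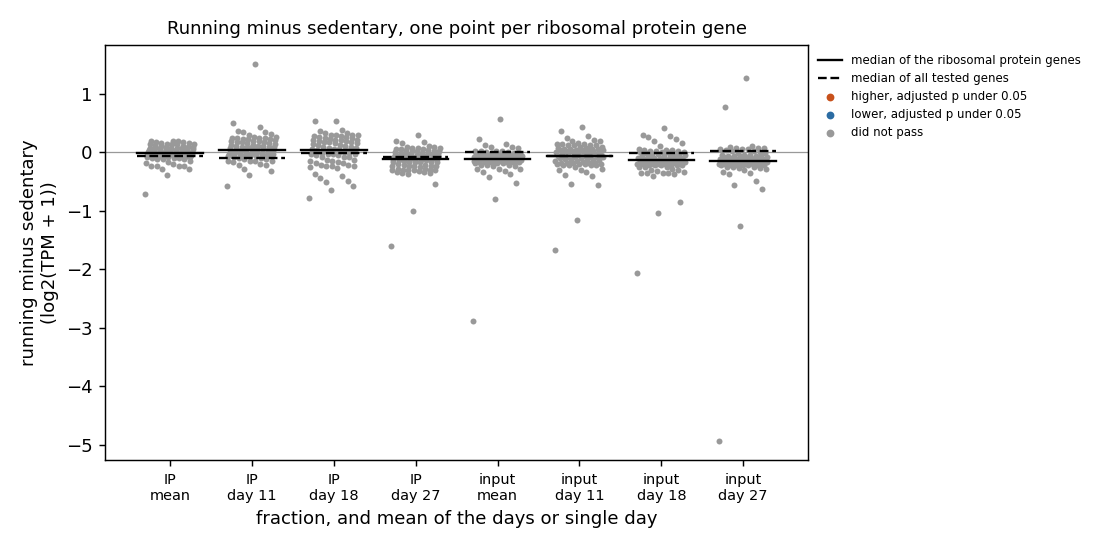
Running minus sedentary on the log2(TPM + 1) scale, 1 point per ribosomal protein gene, in the IP and the input, as the mean of the days and on each day; solid lines are medians of these genes and dashed lines medians of all tested genes. No point passed the threshold in the fits without a replicate block. The medians of the IP and input means are -0.01 and -0.11, and the lowest input points are Rpl26, which is listed at 0 in several libraries.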

How the data were processed

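The authors deposited 1 table of TPM for 23306 genes in 24 libraries made with a stranded total-RNA kit. The submitters' processing notes name RSEM and mm10. The RSEM version, gene annotation, aligner and use of strand were not given in the sources used here. TPM keeps no depth, so no counting interval was computed and precision rests on the spread between libraries.

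Libraries were grouped by their labels. Tests used limma 3.58.1 in R 4.3.3 (a mean per group, eBayes with its trend and robust options). Values were log2(TPM + 1), a scale that understates changes of low genes, and genes needed a mean of 1 TPM or more over the libraries fitted: 24 libraries, 12 IP or 12 input. All gene p-values are two-sided, from limma, adjusted by Benjamini-Hochberg over all genes of a contrast, at a threshold of 0.05. F tests have no direction. The fits were run on simulated data with independent noise per gene and library. Those data held no effect shared by a library or letter, so they do not check such effects. Coordinates come from GENCODE M21 (GRCm38, the mm10 build) and promoters from RefSeq.

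Named members were the 10 largest passing changes per direction; with fewer than 3 passing, the 3 of lowest p were added. Rpl22, Rpl22l1, the stalk genes, Rpsa, Rps27a, the paralogs and their parents, the 3 highest and lowest levels, and up to 3 genes per companion list were also named. Some items that this rule names are not reported here. The levels of Rpl26 were singled out after they were seen. The members and lists were chosen with earlier results of these data known. Alternatives tried were other pseudocounts (0.1, 5), filters (none, 5), scalings, limma options, a replicate block, a joint fit, no day 18 and each library left out.

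Libraries carry letters shared between groups of a day. Deviations from group means of same-letter libraries correlated at 0.048 to 0.27 between running and sedentary and at -0.28 to -0.0083 between IP and input. With 2 libraries per group these values cannot settle whether the letters pair the samples. The main fits did not treat the letters as pairs, and fits with the letter as a block are given below. No 2 libraries were identical, and those of a group correlated at Spearman 0.9362 to 0.9817.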

Additional observations from a re-analysis of the deposited data

Results flagged for a closer look

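Rpl14 in the day 11 IP libraries had 1 library far from the others, running a at 728.5 TPM beside 534, 522 and 518 TPM. It was the only such case among 36 sets of 4 libraries, of which chance would mark about 1 in 20. The same library held 17.4% Rpph1. Without it Rpl14 still fell between days 11 and 27 of the IP.

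The difference between IP and input itself differed between days for 19 of 84 members by limma's F test, where 37.4% of all genes did. Rpl22 (adjusted p = 0.00746), Rpl14 (adjusted p = 0.00757) and Rpl12 (adjusted p = 0.0115) had the lowest p.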

How the results depend on the processing

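Of 232 counts of called members recomputed under settings other than leaving out a library, 205 stayed within 1.5 times, 15 were higher and 12 lower. These include comparisons whose main count was 0, such as running, so the 205 say less about the other counts. Under median-of-ratios scaling the numbers higher and lower in the IP were 3 and 62 in all, beside 27.7% and 41.5% of all genes. They were 1 and 36 on day 11, 2 and 39 on day 18, and 1 and 59 on day 27. The shares of all genes within days under this scaling are not given, so these daily counts have no background. None rose (0) between days 11 and 27 of the IP, where 6.58% of all genes did. With a mean TPM of at least 5, 1 rose and 17 fell between days 11 and 18 of the IP, 1 rose over those days in the input, 0 fell between days 18 and 27 of the input, and 11 differed by day. A pseudocount of 5 gave 2 falls between days 18 and 27 of the input. Without limma's trend and robust options 0 members fell between days 11 and 18 and 14 between days 11 and 27 of the IP. Leaving Rpph1, Gm20594 and Malat1 out of the total gave 17 falls between days 11 and 18 of the IP. The contrast of day 27 with day 11, chosen after seeing the data, gave 0 where the F test gave 19. The cause was not tested.

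With the letter as a replicate block, 39 members were lower and 6 higher in the IP, among 13116 genes called in either direction. For running in the IP 1 member, Rpl22l1 (-0.39), passed among 440 genes that did. Between days 11 and 18 of the IP 1 rose and 31 fell, among 2327 genes called. Between days 11 and 27 of the IP 2 rose and 45 fell, among 4182. In the input 4 rose and 41 fell between days 11 and 18, among 11134 genes called. Between days 18 and 27 of the input 29 rose and 5 fell, among 9184. The difference between IP and input differed by day for 8 members. Shares of all genes by direction are not given for the block fits. The letters were not treated as pairs in the other fits. With 2 libraries per group, correlations of deviations cannot settle whether the letters pair the samples.

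Leaving out single libraries gave these ranges of members called, for which the shares of all genes are not given. IP against input had 6 to 11 higher in all, 2 to 8 on day 11, 4 to 10 on day 18, with 13 to 23 lower on day 18 and 24 to 45 on day 27, and 7 to 27 differed by day. Between days 11 and 18 of the IP 0 to 2 rose and 2 to 25 fell, between days 11 and 27 0 to 2 rose and 6 to 54 fell, and between days 18 and 27 0 to 1 passed. In the input 2 to 5 rose and 19 to 37 fell between days 11 and 18, 6 to 24 rose and 1 to 3 fell between days 18 and 27, and 0 to 1 passed between days 11 and 27.

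Signs turned for members near 0. For IP against input, median-of-ratios scaling gave -0.15 for Rplp0, -0.14 for Rpl7, -0.115 for Rps27l and -0.197 for Rps4y2, and Rplp0 was -0.002 without day 18. Between days 11 and 27 of the input it gave -0.0182 for Rps15a and -0.0513 for Rpl22l1. Rpl22 for running was -0.0552 in the IP without day 18, -0.0155 in the input with the 3 RNAs left out, and its difference between fractions 0.0366 with median-of-ratios scaling and 0.0258 with the 3 RNAs left out. Leaving out libraries moved Rpl22 for running from -0.0671 to 0.0674 in the IP, from -0.115 to 0.122 in the input and from -0.122 to 0.115 between them, and Rpl22l1 in the input from -0.178 to 0.0564. For days of the input, Rpl22l1 ran from -0.259 to 0.0931 (18 against 11), -0.0321 to 0.32 (27 against 18) and -0.0329 to 0.155 (27 against 11), Rpl22 from -0.265 to 0.0912 and Rps15a from -0.0103 to 0.196 (27 against 11). TPM gives no depth, so what depth limits cannot be stated.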
